A study of Mus musculus with 8 samples.

Results

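The fibroblast and fibrosis miRNAs described here are 8 names chosen as miRNAs of connective tissue: mmu-miR-199a-5p, mmu-miR-199a-3p, mmu-miR-199b, mmu-miR-199b*, mmu-miR-214, mmu-miR-21, mmu-miR-140 and mmu-miR-140* (the species prefix mmu is left out below). The rule for membership is the name alone and holds no threshold on measured values, although earlier results of these data were known when the names were chosen. Probes carrying 7 of these names were found among the 567 mouse miRNAs of the array, and all 7 passed the detection filter with which 126 miRNAs were kept for testing. The array files held 0 probes named miR-199a-3p. Total RNA of mouse skeletal muscle was hybridised to 8 arrays, 4 labelled diabetic and 4 labelled control. By the design text, the diabetic mice were C57BL/KsJ db/db, which lack a working leptin receptor and become obese and diabetic, and the control mice were C57BL/KsJ db+. The strain entry of each sample names the opposite genotype, so the groups below follow the titles, descriptions and group entries. The muscle, the age and sex of the mice and the number of mice per array are not given in the sources used here. The p-values therefore measure the spread between arrays, which may be technical.

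A miRNA is a short RNA that guides Argonaute proteins to mRNAs, mainly through pairing of its seed, bases 2 to 8, and lowers their translation and stability. Mesenchymal cells such as fibroblasts are a known source of the miR-199 and miR-214 transcripts, and miR-140 is best known from cartilage. miR-21 is made by many cell types and is known to increase in fibrotic and injured tissue. Bulk muscle RNA contains fibroblasts as a minority of the cells, so fewer cells of a type and less RNA per cell cannot be told apart.

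The mature sequences show which of these miRNAs can be read separately by a probe. They are printed 5′ to 3′ from the RefSeq table of GRCm38.p6, with the seed in capitals. A newer name was used where the array carries an older one: miR-21 is now miR-21a-5p, miR-214 is miR-214-3p and miR-140* is miR-140-3p. The arms of miR-140 (now miR-140-5p) and miR-199b-5p are named only.
miR-199a-5p: cCCAGUGUucagacuaccuguuc
miR-199a-3p: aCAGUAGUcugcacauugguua
miR-199b-3p: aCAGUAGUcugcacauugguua
miR-214-3p: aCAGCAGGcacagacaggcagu
miR-21a-5p: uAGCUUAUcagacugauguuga
miR-140-3p: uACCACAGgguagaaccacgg
These 5 distinct sequences have 5 distinct seeds. The RefSeq table holds no sequence of miR-199b-5p or miR-140-5p, so their seeds were not compared. Whether miR-199a-5p can be read separately from miR-199b-5p is therefore not shown here. miR-199a-3p and miR-199b-3p are identical, so a probe against this sequence reads RNA from 3 hairpin genes, Mir199a-1, Mir199a-2 and Mir199b. The array names miR-199b and miR-199b* do not settle which of them is this 3p arm, since the files hold no probe sequences. Both are therefore given under their array names. In the RefSeq table the seed of miR-214-3p is shared with miR-761, which did not pass the detection filter, that of miR-21a-5p with miR-21c and that of miR-140-3p with miR-497b. The array files hold no probes under the last 2 names.

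The 6 hairpin genes lie on 5 chromosomes in GRCm38.p6. miR-199a-5p is encoded at chr1:162217844-162217866 on the plus strand (Mir199a-2) and at chr9:21496537-21496559 on the minus strand (Mir199a-1). miR-214-3p lies at chr1:162223438-162223459 on the plus strand, and 5444 bases separate the hairpin of Mir214 from that of Mir199a-2. In the gene table both hairpins overlap the long noncoding RNA gene Dnm3os and the protein-coding gene Dnm3. Mir199a-1 overlaps Dnm2, and Mir199b overlaps Dnm1, with miR-199b-3p at chr2:32318524-32318545 on the plus strand. miR-21a-5p lies at chr11:86584120-86584141 on the minus strand, where Mir21a overlaps Vmp1. miR-140-3p lies at chr8:107551288-107551308 on the plus strand, where Mir140 overlaps Wwp2, a ubiquitin ligase gene.

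Each level below is relative: the mean processed intensity of the probes of a miRNA was divided by the 75th percentile of its array and converted to log2. Before scaling, that percentile was 219 to 479 on the diabetic arrays and 308 to 618 on the control arrays. The number of miRNAs detected was 102 to 131 on the diabetic arrays and 112 to 147 on the control arrays. The diabetic arrays lay in slide row 2 and the control arrays in slide row 1, so that slide row and disease group cannot be told apart. The muscle miRNAs miR-1, miR-133a, miR-133a*, miR-133b and miR-206 were detected on all 8 arrays, miR-208b on 4 and miR-499 on 0. Of 10 epithelial miRNAs, 0 were detected on any array. No probe is set against another in level, because probes differ in brightness for reasons other than RNA amount.

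Of the 7 miRNAs, 6 had a lower mean on the diabetic arrays and miR-21 had a slightly higher one. In limma's fit across the 126 miRNAs 0 of the 7 passed an adjusted p of 0.05, where 4.76% of all tested miRNAs passed, all of them higher in diabetic muscle. At an unadjusted p under 0.05 there was 1 of the 7, miR-199a-5p, against 16.7% of all tested miRNAs in either direction and 10.3% that were lower like it. The diabetic and control values overlapped for each of the 7, whereas they did not for 8.73% of all tested miRNAs, or 0.794% counting those lower in diabetic muscle. The median log2 difference of the 7 was −0.45, against −0.06 over all 126, of which 54.0% were negative. The 7 are not independent, since several come from shared hairpins or 1 transcript.

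**Figure D1:**
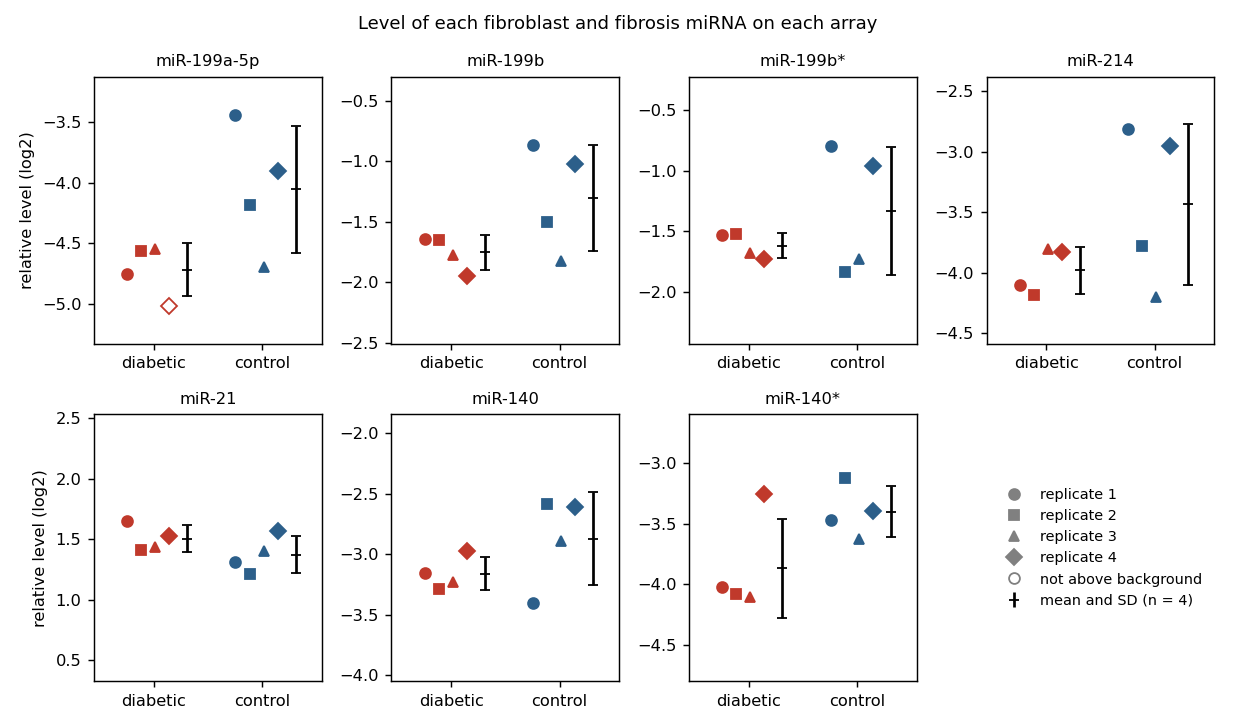
Relative log2 level (vertical axis, 1 panel per miRNA, each spanning the same number of log2 units) on the 4 diabetic (red) and 4 control (blue) arrays; marker shapes give the replicate number, bars the mean and SD, and an open marker a value not above background. In the miR-199 and miR-214 panels control 1 and control 4 lie highest, while miR-21 stays within 1.21 to 1.65 on all arrays.

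miR-199a-5p, a miRNA known to be induced in activated fibroblasts, had a lower mean on the diabetic arrays. Its relative log2 level was −4.75, −4.56, −4.55 and −5.01 on diabetic arrays 1 to 4, against −3.44, −4.18, −4.70 and −3.90 on control arrays 1 to 4. Control 3 lay among the diabetic arrays and the other control arrays lay above all of them. The means were −4.72 ± 0.22 in diabetic and −4.05 ± 0.53 in control muscle (SD, n = 4 each), a log2 difference of −0.66 (SE 0.27, 95% interval −1.26 to −0.07, limma adjusted p = 0.237). This is a level 0.631 times that of control, and it had the 15th smallest p of the 126. Its brighter probe had intensities of 12.5 to 38.9 on the diabetic arrays, where it was above background on 3 of 4, and 24.9 to 61.3 on the control arrays. The second probe of miR-199a-5p was above background on 0 of 8 arrays. Without control 3 the log2 difference was −0.88 and remained short of the threshold (limma adjusted p = 0.0585, against 0.0585 to 0.998 over all alternatives). It was −0.34 where every mouse probe entered the percentile, −0.32 with the median of log2 probes and −0.14 with normexp background correction.

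miR-214 is cut from the same Dnm3os transcript as the miR-199a of Mir199a-2, and it is known to act on muscle differentiation and on matrix-producing cells. On diabetic arrays 1 to 4 it had relative log2 levels of −4.10, −4.18, −3.80 and −3.82, against −2.81, −3.78, −4.20 and −2.95 on control arrays 1 to 4. Control 1 and control 4 stood above all other arrays, control 2 lay just above the highest diabetic array and control 3 just below the lowest. The log2 difference was −0.54 (SE 0.31, 95% interval −1.22 to 0.13, limma adjusted p = 0.43), with means of −3.98 ± 0.19 in diabetic and −3.43 ± 0.67 in control muscle (SD, n = 4 each). Without control 1 the difference of miR-214 was −0.34. Only 1 of its 2 probes was above background, on all 8 arrays, with intensities of 31.9 to 56.8 on the diabetic arrays and 37.3 to 86.2 on the control arrays. The other strand of the hairpin, miR-214*, was detected on 0 of 8 arrays.

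For the array entry miR-199b, control 1, control 4 and control 2 were again the highest arrays, in that order. It had relative log2 levels of −1.64, −1.65, −1.77 and −1.95 on diabetic arrays 1 to 4, against −0.87, −1.50, −1.82 and −1.02 on control arrays 1 to 4. Control 3 lay among the diabetic arrays, and diabetic 4 was lowest. The difference was −0.45 (SE 0.24, 95% interval −0.98 to 0.08, limma adjusted p = 0.407), with means of −1.75 ± 0.14 in diabetic and −1.30 ± 0.44 in control muscle (SD, n = 4 each). Both probes of miR-199b were above background on all 8 arrays, and their separate log2 differences were −0.48 and −0.44.

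The entry miR-199b*, by name the other strand of miR-199b, separated the arrays less. Diabetic arrays 1 to 4 had relative log2 levels of −1.53, −1.53, −1.68 and −1.73, against −0.79, −1.84, −1.73 and −0.96 on control arrays 1 to 4. Control 1 and control 4 were above all diabetic arrays, whereas control 2 was below all of them and control 3 was level with the lowest. The difference was −0.29 (SE 0.26, 95% interval −0.86 to 0.29, limma adjusted p = 0.699), with means of −1.62 ± 0.10 in diabetic and −1.33 ± 0.53 in control muscle (SD, n = 4 each). It was −0.11 without control 1, −0.16 without control 4 and −0.46 without control 2. Its sign turned, to 0.036, where the percentile was taken over every mouse probe. Its 2 probes gave −0.32 and −0.28 and were above background on all 8 arrays.

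miR-21, which is known to promote fibroblast survival by repressing inhibitors of growth signalling, was the most even of the 126 on the control arrays, where its SD ranked 126 of 126 in size. It had relative log2 levels of 1.65, 1.41, 1.44 and 1.53 on diabetic arrays 1 to 4, against 1.31, 1.21, 1.41 and 1.57 on control arrays 1 to 4. The groups overlapped, with control 2 lowest and diabetic 1 highest. The means were 1.51 ± 0.11 in diabetic and 1.37 ± 0.15 in control muscle (SD, n = 4 each), a log2 difference of 0.13 (SE 0.19, 95% interval −0.28 to 0.55, limma adjusted p = 0.792). The interval runs from 0.823 to 1.46 times the control level. The difference depended on the scaling: it was 0.46 (SE 0.36) where every mouse probe entered the percentile, 0.089 with the median of the detected probes, 0.027 without scaling and −0.088 under quantile normalization. It was 0.079 without control 2 and 0.085 without diabetic 1. The brighter of its 2 probes had intensities of 1176 to 2380 on the diabetic arrays and 1422 to 2656 on the control arrays. miR-21*, the other strand, was detected on 0 of 8 arrays.

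**Figure D2:**
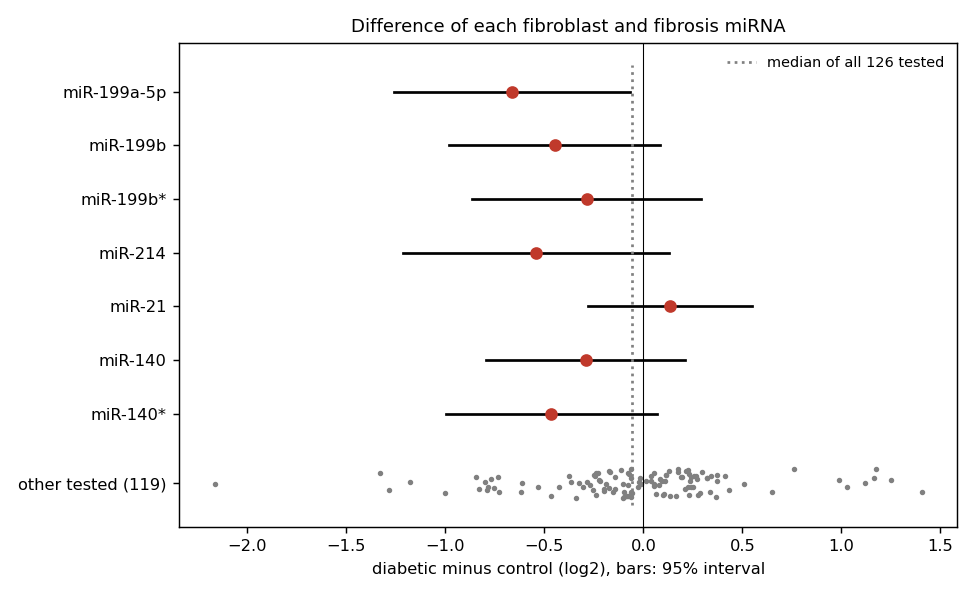
Log2 difference, diabetic minus control (horizontal axis), of each of the 7 miRNAs with its 95% interval, above the differences of the other 119 tested miRNAs (grey points, spread vertically for legibility). The interval of miR-199a-5p ends at −0.07, and those of the other 6 cross 0.

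The strands of the miR-140 hairpin, which is hosted by Wwp2 and best known for its role in chondrocytes, followed another order of arrays. miR-140 had relative log2 levels of −3.15, −3.29, −3.23 and −2.97 on diabetic arrays 1 to 4, against −3.40, −2.58, −2.89 and −2.61 on control arrays 1 to 4. Here control 1, which was highest in the miR-199 and miR-214 entries, was the lowest of all 8 arrays, and the other control arrays lay above the diabetic ones. The log2 difference of miR-140 was −0.29 (SE 0.23, 95% interval −0.79 to 0.21, limma adjusted p = 0.659), with means of −3.16 ± 0.14 in diabetic and −2.87 ± 0.38 in control muscle (SD, n = 4 each). It was −0.47 without control 1 and turned to 0.032 where every mouse probe entered the percentile. The 2 probes of miR-140 gave −0.30 and −0.29.

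miR-140* had relative log2 levels of −4.02, −4.08, −4.11 and −3.25 on diabetic arrays 1 to 4, against −3.46, −3.12, −3.62 and −3.39 on control arrays 1 to 4. Diabetic arrays 1 to 3 lay below all control arrays, while diabetic 4 lay above all but control 2. The difference was −0.47 (SE 0.24, 95% interval −0.997 to 0.067, limma adjusted p = 0.391), with means of −3.87 ± 0.41 in diabetic and −3.40 ± 0.21 in control muscle (SD, n = 4 each). Without diabetic 4 it was −0.67 (limma adjusted p = 0.164, against 0.164 to 0.998 over all alternatives). Diabetic 4 was also the dimmest array, with the fewest detected miRNAs; the part of this in the value was not tested. The brighter probe of miR-140* had intensities of 37.6 to 49.4 on the diabetic arrays and 47.5 to 122 on the control arrays. Its second probe was above background on 1 of 8 arrays.

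Ratios within an array do not depend on its scaling, and 3 pairs of these miRNAs were compared in this way. The log2 ratio of miR-199b* to miR-199b was 0.13 ± 0.05 on the diabetic arrays and −0.03 ± 0.21 on the control arrays (SD, n = 4 each), a difference of 0.16. The two-sided exact permutation p was 0.0571, or 0.171 after Benjamini-Hochberg adjustment over the 3 pairs, and the smallest p that 70 assignments allow is 0.0286. Control 2 alone had a ratio clearly below 0, at −0.34, and without it the difference was 0.058. The 3p sequence of miR-199b is shared by 3 hairpin genes, so this ratio need not compare the strands of a single hairpin. The ratio of miR-140* to miR-140 was −0.71 ± 0.29 on the diabetic arrays and −0.53 ± 0.33 on the control arrays (SD, n = 4 each; difference −0.17, two-sided exact permutation p = 0.457, adjusted p = 0.629). For miR-214 over miR-199a-5p the ratio was 0.74 ± 0.34 on the diabetic arrays and 0.62 ± 0.24 on the control arrays (SD, n = 4 each). The difference was 0.12 (two-sided exact permutation p = 0.629, adjusted p = 0.629). Mir199a-1, on another chromosome than Mir214, encodes the same miR-199a-5p sequence, so this ratio is not within a single transcript. On diabetic 4, which had the highest ratio at 1.19, miR-199a-5p was not above background, so the ratio there rests on an undetected value. Without diabetic 4 the miR-140 strand ratio differed by −0.32 and the ratio of miR-214 to miR-199a-5p by −0.030, and without control 1 the miR-140 strand ratio differed by −0.018. Without control 2 the ratio of miR-214 to miR-199a-5p differed by 0.046 and without diabetic 2 by 0.24. None of the 3 ratios passed the permutation test, and with 4 arrays a group small differences could not be detected.

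The arrays of the control group were less alike in these miRNAs than those of the diabetic group. The SD was larger on the control arrays for 6 of the 7, miR-140* being the exception, and for 113 of all 126 tested. The median SD of the 7 was 0.14 on the diabetic arrays and 0.44 on the control arrays, while over all tested miRNAs it was 0.23 on the diabetic arrays and 0.43 on the control arrays. After each miRNA was centred on its own mean over the 8 arrays, the mean profile of the 7 was −0.18, −0.23, −0.20 and −0.13 on diabetic arrays 1 to 4. On control arrays 1 to 4 it was 0.40, 0.07, −0.18 and 0.43, so that control 3 lay within the diabetic range and control 1 and control 4 stood apart from the other 6 arrays.

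Other groups of miRNAs were set beside this profile array by array. The median centred level over all 126 tested miRNAs was −0.17 to 0.17 on the diabetic arrays, and 0.19, −0.37, −0.03 and 0.21 on control arrays 1 to 4. For the 10 tested miRNAs of the Dlk1-Dio3 region, whose many miRNAs are imprinted, it was −0.65 to −0.07 on the diabetic arrays. It was 0.49 on control 1 and 1.15 on control 4, against −0.37 on control 2 and −0.02 on control 3. Summed over the 56 cluster miRNAs on the array, the linear level was 0.509 to 0.722 on the diabetic arrays and 0.561 to 1.51 on the control arrays, and 43 of the 56 were detected on 0 arrays. Among 9 leukocyte miRNAs the sum was 0.217 to 0.670 on the diabetic arrays and 0.775, 2.10, 0.386 and 0.464 on control arrays 1 to 4. It was highest on control 2, and control 4 lay within the diabetic range. The median centred level of the 3 tested leukocyte miRNAs was −0.55 to −0.05 on the diabetic arrays and 0.80, 0.28, 0.05 and 0.31 on control arrays 1 to 4. Of the 9, miR-146a, miR-150, miR-150* and miR-342-5p were detected on 0 arrays. The muscle miRNAs had median centred levels of 0.03 to 0.28 on the diabetic arrays and −0.16, −0.71, 0.06 and 0.17 on control arrays 1 to 4. Control 1 and control 2 lay below the diabetic range, and control 3 and control 4 lay within it. The part of these groups in the levels of the fibroblast miRNAs was not tested.

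**Figure D3:**
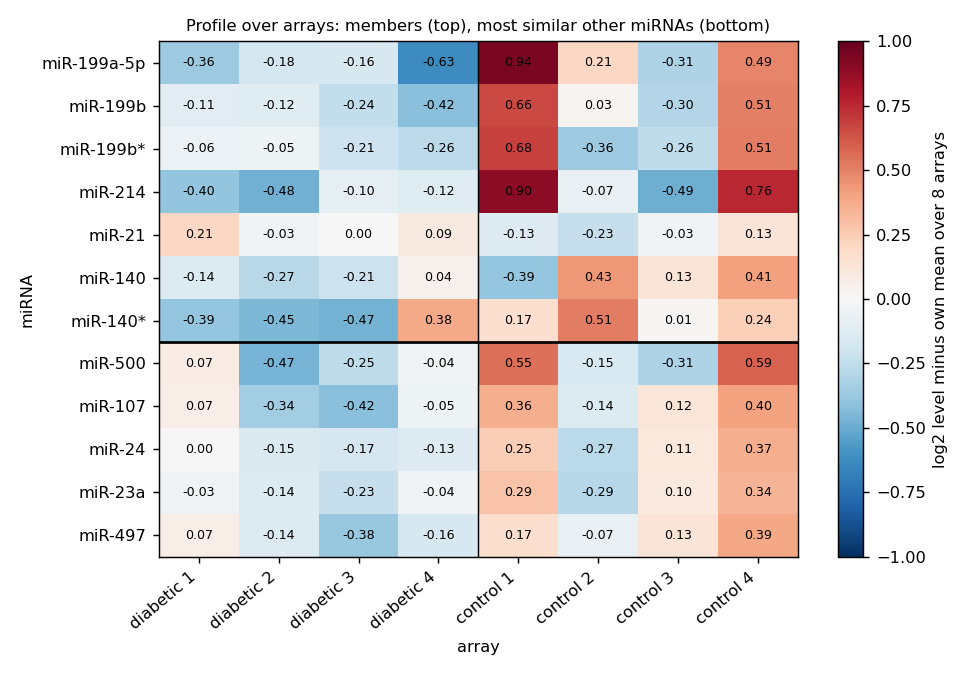
Centred log2 level (colour and printed value) of the 7 miRNAs, above the line, and of the 5 other tested miRNAs with the most similar profile, below it, on the 4 diabetic (left) and 4 control arrays. The miR-199 and miR-214 entries share high values on control 1 and control 4, and miR-140 is low on control 1.

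The 5 other tested miRNAs closest to the mean profile of the 7 were miR-500, miR-107, miR-24, miR-23a and miR-497. Their root mean square deviation from it over the 8 arrays was 0.176 to 0.185 on the log2 scale, against a median of 0.406 over the 119 tested miRNAs outside the 7. Their own log2 differences were −0.34 for miR-500, −0.37 for miR-107, −0.22 for miR-24, −0.22 for miR-23a and −0.31 for miR-497, with limma adjusted p-values of 0.441 to 0.699. Like the mean profile of the 7, each of these 5 was highest on control 4. They were picked for closeness to that profile, so the low deviation and in part the shared peak follow from the choice.

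Other miRNAs with known links to matrix production behaved in more than 1 way. In the miR-29 family, miR-29a, miR-29b and miR-29c repress collagen mRNAs. All 4 tested strands, these and miR-29c* from the miR-29c hairpin, had a higher mean on the diabetic arrays. Their log2 differences were 0.76 to 1.25 with a median of 1.08 (limma adjusted p-values of 0.00642 to 0.0581). In limma 3 of the 4 passed, all but miR-29a, against 4.76% of all tested miRNAs. Since miR-29c and miR-29c* come from the same hairpin, the 4 are not independent. The summed level of the family's 6 strands was 8.76 to 10.4 on the diabetic arrays and 3.97 to 6.09 on the control arrays. The groups did not overlap in this sum. Of single tested miRNAs, 8.73% had groups without overlap. Of 15 tested strands of other miRNAs with published roles in fibrosis or TGF-β signalling, 0 passed in limma and 0 had an unadjusted p under 0.05. Their differences ran from −0.22 to 0.65 with a median of 0.10. The smallest p-values among them belonged to miR-133a*, at 0.51 (SE 0.25, limma adjusted p = 0.383), and miR-26a, a repressor of SMAD signalling, at 0.41 (SE 0.21, limma adjusted p = 0.391). Among vascular miRNAs 2 were tested and neither passed, with endothelial miR-126-3p at −0.07 (SE 0.23) and miR-143 of smooth muscle at −0.03 (SE 0.26). From the same list miR-126-5p, miR-145 and miR-145* were detected on 0 arrays.

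Lists of other cell types gave 0 calls in limma. The 3 tested leukocyte miRNAs had differences of −1.29 to −0.20 with a median of −0.80, and 1 of them, miR-342-3p, had an unadjusted p under 0.05. The 10 tested Dlk1-Dio3 miRNAs had a median of −0.69, with 9 of 10 negative and 5 at an unadjusted p under 0.05. Of all 126 tested miRNAs 54.0% were negative. An unadjusted limma p under 0.05 was found for 16.7% of the 126, and for 10.3% with a lower mean on the diabetic arrays. The medians were −0.17 for 2 erythroid, 0.10 for 6 muscle, −0.05 for 6 adipocyte and 0.18 for 2 liver miRNAs. Of these only miR-206 of muscle, at −1.33 (SE 0.44, limma adjusted p = 0.132), had an unadjusted p under 0.05. The single tested neural miRNA, miR-128, was at −0.14.

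**Figure D4:**
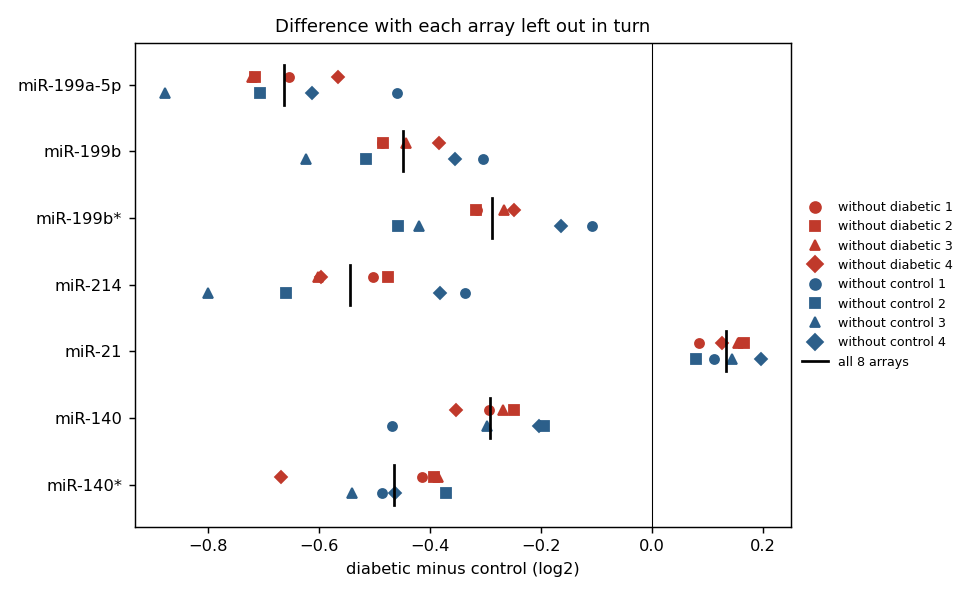
Log2 difference, diabetic minus control (horizontal axis), of each of the 7 miRNAs with all 8 arrays (black bar) and with 1 array left out (red: a diabetic array, blue: a control array; shapes give the replicate number). All signs are kept; the miR-199 and miR-214 entries lie nearest to 0 without control 1 and, except miR-199b*, farthest from it without control 3.

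No single array turned the sign of any of the 7 differences. Without control 1 the entries of the miR-199 and miR-214 hairpins had differences of −0.46 (miR-199a-5p), −0.34 (miR-214), −0.30 (miR-199b) and −0.11 (miR-199b*). Without control 3 they had −0.88, −0.80, −0.62 and −0.42 in the same order. In each of these fits 0 of the 7 passed in limma. The scaling mattered for the size: where every mouse probe entered the percentile, the median difference of all 126 miRNAs moved by 0.32 and that of the 7 was −0.13. A change of percentile shifts all miRNAs of an array alike, so the gap of −0.39 between the median of the 7 and that of all tested miRNAs is the same by construction. Under settings that can move it, the gap was −0.32 with quantile normalization, −0.26 with the median of log2 probes and −0.15 with normexp. It was −0.42 without scaling and also −0.42 where detection on all 8 arrays was required. With arrays left out the gap ran from −0.51 without control 3 to −0.30 without diabetic 1. The difference of miR-214 was −0.22 where every mouse probe entered the percentile, −0.26 with the median of log2 probes and −0.14 with normexp. For miR-140* these settings gave −0.14, −0.23 and −0.13 in the same order. miR-199b was at −0.13 where every mouse probe entered the percentile and at −0.28 with normexp, and miR-199b* was at −0.18 with normexp. miR-140 was at −0.085 with quantile normalization and at −0.12 with normexp.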

How the data were processed

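Total RNA of skeletal muscle, 100 ng per array per the labels' protocols, carried the dye Cy3 and was read on 8 Agilent arrays of 1 slide in 1 colour. The deposited values are spot intensities read with Feature Extraction 10.5, per the file headers: the processed intensity is background-subtracted after a spatial detrend and is not normalized between arrays. The deposited flags of 0 or 1 mark outlier, saturated and detected spots; 0 mouse spots were saturated. Of 12493 spots per array, 11340 belonged to 1672 mouse probes. The array design names mm9; the sequence tables are of GRCm38.p6.

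Outlier spots were dropped and the spots of a probe averaged. A probe counted as detected where at least 50% of its spots were well above background, and a miRNA where any probe was. Values were scaled to the 75th percentile of their array, taken over 152 probes that all 8 arrays detected. Probes of a miRNA were averaged, raised to a floor of 0.0162 and converted to log2. The 126 miRNAs detected on at least 4 of 8 arrays entered a fit in limma 3.58.1 (R 4.3.3; lmFit, then eBayes, with no term but group), adjusted by Benjamini-Hochberg over all 126. Ratios of 2 miRNAs were compared by exact permutation tests. The limma and permutation steps were tested on simulated data. Alternatives covered scaling, background, probe summary, filter, floor, variance model, a replicate block and each array left out with scaling and filter kept. The mean over probes above background on at least 4 arrays was added after seeing the data. The files hold no mean spot intensity, so normexp (offset 50) used the median intensity.

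The 8 names and all lists were chosen with earlier results of these data known. Named miRNAs are the members, the 5 tested miRNAs nearest to their mean centred profile, and list members with the smallest p; for most lists only counts and medians are given. Sequences were matched by name: 6 mature names were found in the RefSeq table. Figures were drawn with matplotlib 3.10.9.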

Additional observations from a re-analysis of the deposited data

Results flagged for a closer look

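The relative level of miR-140* on diabetic 4 stood apart from its group. It was −3.25 on the log2 scale, against −4.11 to −4.02 on the other 3 diabetic arrays, and its gap to the nearest of them was 0.899 of the range of the group. This was 1 of 14 groups of 4 arrays examined (7 miRNAs in 2 groups), where chance gives about 1 in 20. Without diabetic 4 the log2 difference of miR-140* was −0.67, against −0.47 with all arrays.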

How the results depend on the processing

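None of the 7 miRNAs passed the limma threshold under any of 13 other settings or with any array left out, with adjusted p-values of 0.0585 to 0.998; miR-199a-5p has no value where detection on all 8 arrays was required. Over the arrays left out in turn the log2 differences were −0.88 to −0.46 for miR-199a-5p, −0.80 to −0.34 for miR-214, −0.62 to −0.30 for miR-199b, −0.46 to −0.11 for miR-199b*, −0.47 to −0.19 for miR-140, −0.67 to −0.37 for miR-140* and 0.079 to 0.20 for miR-21. The sign turned for miR-199b* (0.036) and miR-140 (0.032) with the percentile over all mouse probes, which moved the median difference of all 126 miRNAs by 0.32. It also turned for miR-21 (−0.088) with quantile normalization, and the cause of that turn was not tested. The ratio of miR-140* to miR-140 turned to 0.058 with the median of log2 probes. That of miR-214 to miR-199a-5p turned to −0.0026 with normexp and ran from −0.030 to 0.24 with arrays left out. With normexp, whose offset shrinks differences of dim miRNAs, miR-199a-5p was at −0.14 and miR-214 at −0.14.

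Over all tested miRNAs the main counts were 6 higher and 0 lower. With arrays left out they were 2 to 7 and 0 to 3: higher calls numbered 2 without diabetic 1, 2 or 3 or control 1 or 2, and 3 without diabetic 4, while lower calls numbered 1 without diabetic 4 and 3 without control 3. The count of lower calls was 1 with the percentile over all mouse probes and with the scanner totals, 2 with the median of the detected probes, quantile normalization, detection on all 8 arrays and the added probe filter, and 3 with normexp. The count of higher calls was 0 without scaling and 2 without the detection filter. With the replicate block the counts were 7 and 3 and the adjusted p of miR-199a-5p was 0.155. The correlations of the deviations of same-numbered arrays from their group means were mixed, at 0.21, 0.082, 0.51 and −0.29 for numbers 1 to 4. For 3 of 4 diabetic arrays the control array that correlated best was the same-numbered one, a hint from the data and not from the design, and the arrays were not treated as pairs because not every correlation was above 0.1. The planned ratio of miR-199a-5p to miR-199a-3p was not run because 0 probes carry the second name. For miR-199a-5p and miR-214 only 1 probe was above background on any array, and the second probe of miR-140* was above background on 1 array.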
